A study of Homo sapiens with 18 samples.

Results

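The integrated stress response and the unfolded protein response of the endoplasmic reticulum (ER) were followed here through 38 genes, chosen by name from the 38055 genes of a whole transcriptome RNAseq table. Of these, 21 belong to an amino-acid branch built around the transcription factor ATF4 and 17 to a branch of ER stress sensors, chaperones and folding enzymes. HCT116 cells, an epithelial line from a human colorectal carcinoma, carried the wild-type genotype in both groups and received no agent. They were grown in McCoy's 5A medium with fetal bovine serum, and whole cell total RNA was collected with Trizol on day 3, at 50% confluency, or on day 5, at 250% confluency. Each group held 3 libraries labelled as biological replicates of the one line, and the comparison asks how the RNA of these cells differed once they had grown past a monolayer. Density and days in culture moved together, so their shares in any difference cannot be told apart, and day 7 was not analysed here at the whole transcriptome level.

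The integrated stress response begins when a kinase phosphorylates the initiation factor eIF2. General translation falls, while a few mRNAs with upstream reading frames, ATF4 among them, are translated better. GCN2, encoded by EIF2AK4, senses uncharged tRNA, and PERK, encoded by EIF2AK3, senses unfolded protein in the ER. ATF4 protein then raises genes for amino acid synthesis, uptake and tRNA charging. The ER has further sensors in IRE1 (ERN1), which splices XBP1 mRNA, and in ATF6, which is cleaved to a transcription factor, and both raise chaperones, oxidative folding enzymes and degradation factors. Much of this control acts on translation, splicing and cleavage, which gene-level read counts do not show.

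Short promoter motifs tie genes of both branches to these factors, and the matched stretches are shown because the holders of each motif can then be followed through the results. RefSeq promoter windows of 300 bases, 250 before and 50 after a start on GRCh38.p14, were present for 34 of the 38 genes, 18 of the amino-acid branch and 16 of the ER branch, and SHMT2, ALDH1L2, PSPH and PDIA3 had no entry. The C/EBP-ATF element was searched as TGATGNAA on both strands, and no match overlapped one of the other motifs. It was found in 5 of 31 windows of the amino-acid branch (16.1%), against 3.62% of all 35116 windows. Its fixed letters are in capitals below, with the strand that is printed 5′ to 3′.
ASNS (chr7:97872458-97872487, minus): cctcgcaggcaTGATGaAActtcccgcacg
CEBPG (chr19:33374060-33374089, plus): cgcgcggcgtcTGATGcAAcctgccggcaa
CHAC1 (chr15:40953251-40953280, minus): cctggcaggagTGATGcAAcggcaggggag
SLC1A5 (chr19:46784893-46784922, minus): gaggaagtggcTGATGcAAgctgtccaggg
HERPUD1 (chr16:56931955-56931984, minus): tgggcacgggcTGATGcAAcccgccgcgtc
SLC3A2 also held a match, which lay after the start. HERPUD1 was the 1 gene of the ER branch with this element.

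The ER stress element, CCAAT and CCACG with 9 free positions between them, searched on both strands, was found in 8 of 22 windows of the ER branch (36.4%), belonging to 6 of its 16 genes, in 0 of 31 windows of the amino-acid branch, and in 0.0769% of all windows. Again the fixed letters are in capitals.
HSPA5 (chr9:125241386-125241414, minus): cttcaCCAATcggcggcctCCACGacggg
HSP90B1 (chr12:103930211-103930239, plus): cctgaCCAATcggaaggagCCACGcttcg
HSP90B1 (chr12:103930316-103930344, minus): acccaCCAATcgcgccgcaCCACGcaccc
CALR (chr19:12938379-12938407, minus): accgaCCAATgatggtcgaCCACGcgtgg
CANX (chr5:179698773-179698801, plus): cccggCCAATcttcacactCCACGaagaa
PDIA6 (chr2:10812848-10812876, minus): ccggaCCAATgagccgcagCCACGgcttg
XBP1 (chr22:28800598-28800626, minus): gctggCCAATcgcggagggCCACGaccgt
The shorter ER stress element II, ATTGG and CCACG with 1 free position between them, was found in 2 of 22 ER branch windows (9.09%) and in 0.0541% of all windows.
HERPUD1 (chr16:56932016-56932044, plus): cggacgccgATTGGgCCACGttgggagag
HYOU1 (chr11:119057265-119057293, plus): cgcgtactcATTGGaCCACGtcccaggcc
HYOU1 (chr11:119057371-119057399, plus): cggcctgggATTGGaCCACGtcacggggc
The unfolded protein response element, TGACGTGG, was found in the HYOU1 window alone among both branches, on the opposite strand and overlapping the second of its ER stress elements II, and in 0.729% of all windows. The members were chosen by name as genes of these responses, so the motif shares are a description and were not tested. A match says that these letters are in the window and does not show that a factor bound there. A gene could have windows at several starts, and the windows with the matches of SLC1A5, CANX and PDIA6 lay inside the gene.

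Values below are normalised read counts, that is, reads of a gene divided by 1 factor for each library. The libraries held 27470978 to 56689369 reads. Of 8 colon epithelial markers, 7 passed the filter on low values and 6 of those rose by day 5, with a summed level of 38161 to 56697 on day 3 and 105857 to 106394 on day 5. Fibroblast markers summed to 526 to 605 on day 3 and 1124 to 1200 on day 5, of which COL1A1 made nearly all, and DCN was at 0 in 5 of the 6 libraries. Leukocyte and endothelial markers summed to 14.2 to 28.4 and 26.9 to 47.7, and PTPRC was at 0 in 4 of the 6 libraries. VWF made most of that sum, with 14.0, 19.8 and 8.51 on day 3 and 36.9, 39.7 and 19.7 on day 5. It was the 1 marker of this list that passed the filter. Though its days overlapped, limma called VWF higher by 1.14 log2 units, at an adjusted p of 0.0414. The correction for GC content and length described below brought VWF to 0.15, which was not called. It brought COL1A1 from 1.12, which was called, to 0.14, which was not. Of the epithelial markers 6 were then called higher and 1, CDX2, lower, at -0.24. The part of other cell types in the results was not tested. In bulk RNA, fewer cells of a kind and less RNA per cell cannot be told apart.

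All 38 genes passed the filter, and 25 differed between the days at a Benjamini-Hochberg adjusted p of 0.05 in limma. Over all 20129 genes tested 56.9% did. Of the 38, 14 rose and 11 fell by day 5. Among all genes tested 29.3% rose and 27.6% fell, so the members' shares of 36.8% and 28.9% stood near the background. The branches are counted separately, and the difference between them was not tested. In the amino-acid branch 6 of 21 genes rose and 7 fell, with a median log2 fold change of -0.05. In the ER branch 8 of 17 rose and 4 fell, with a median of 0.24, against 0.01 over all genes tested. The groups of 3 did not overlap for 27 members, 16 higher on day 5 and 11 lower, against 33.4% and 31.7% of all genes tested. Without the filter on low values 8 members lost their call (DDIT3, PPP1R15A, PSPH, SHMT2, EIF2AK3, ATF6, HSPA5 and PDIA6), which left 5 of the 17 ER branch genes higher, against 12.5% of the 38055 genes then tested. That share includes genes too low to pass the filter, which all 38 members passed, so it is not a like background. A change of at least 2-fold was seen in DDIT4, ERO1A and SLC1A5 (higher) and in ASNS, MTHFD2 and PSAT1 (lower), against 10.2% and 7.6% of all genes.

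**Figure D1:**
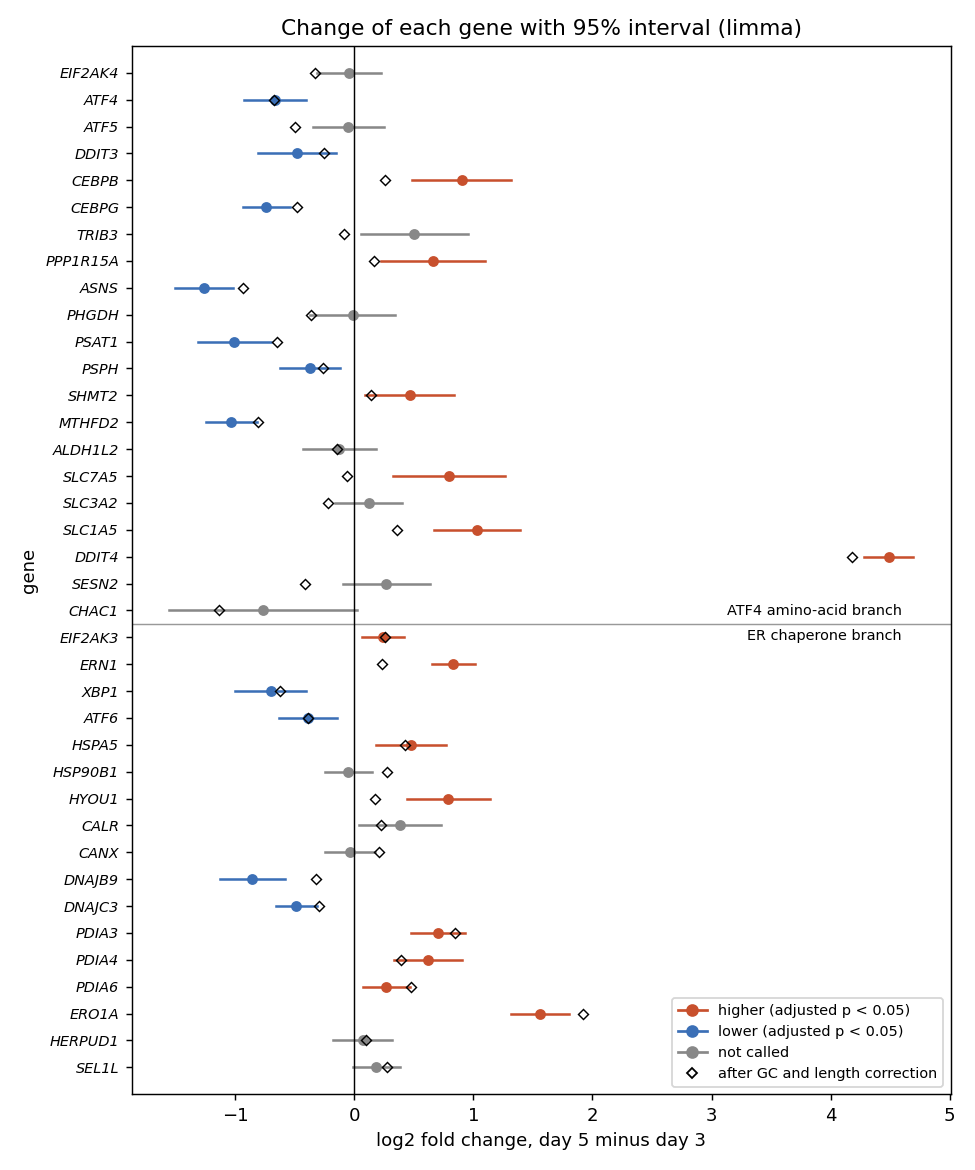
Log2 fold change, day 5 minus day 3, of each of the 38 genes from limma, with 95% confidence intervals from 3 libraries a day the genes ordered by role within each branch, red for higher, blue for lower and grey for not called. Open diamonds are the values after GC and length correction. DDIT4, at 4.49, and ERO1A, at 1.56, stood highest, and ASNS, at -1.26, stood lowest.

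Fold changes went with the base composition of the transcripts, which bears on several members. Across 19288 genes with a GC content, the log2 fold change and GC content had a Spearman correlation of 0.437, given as a description, since all genes share the same 6 libraries. With transcript length the correlation was 0.3. The median log2 fold change ran from -0.36 in the 4822 genes with the lowest GC content to 0.52 in the 4822 with the highest, where 55.5% of genes rose and 7.84% fell. In a step added after seeing the data, the smooth trend with GC content and transcript length was removed from each library and limma was run again. This can change the spread between libraries as well as the fold changes, so a call gained or lost need not come from the fold change alone. After it, the amino-acid branch held 1 gene that rose and 9 that fell of 21. The ER branch then held 9 that rose and 4 that fell of 17, and of all genes 22.1% rose and 24.5% fell. Corrected log2 fold changes of members are given below beside the uncorrected ones. GC correction there means this step for GC content and length together, whose shares were not separated. How much of the GC trend came from library preparation was not tested.

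**Figure D2:**
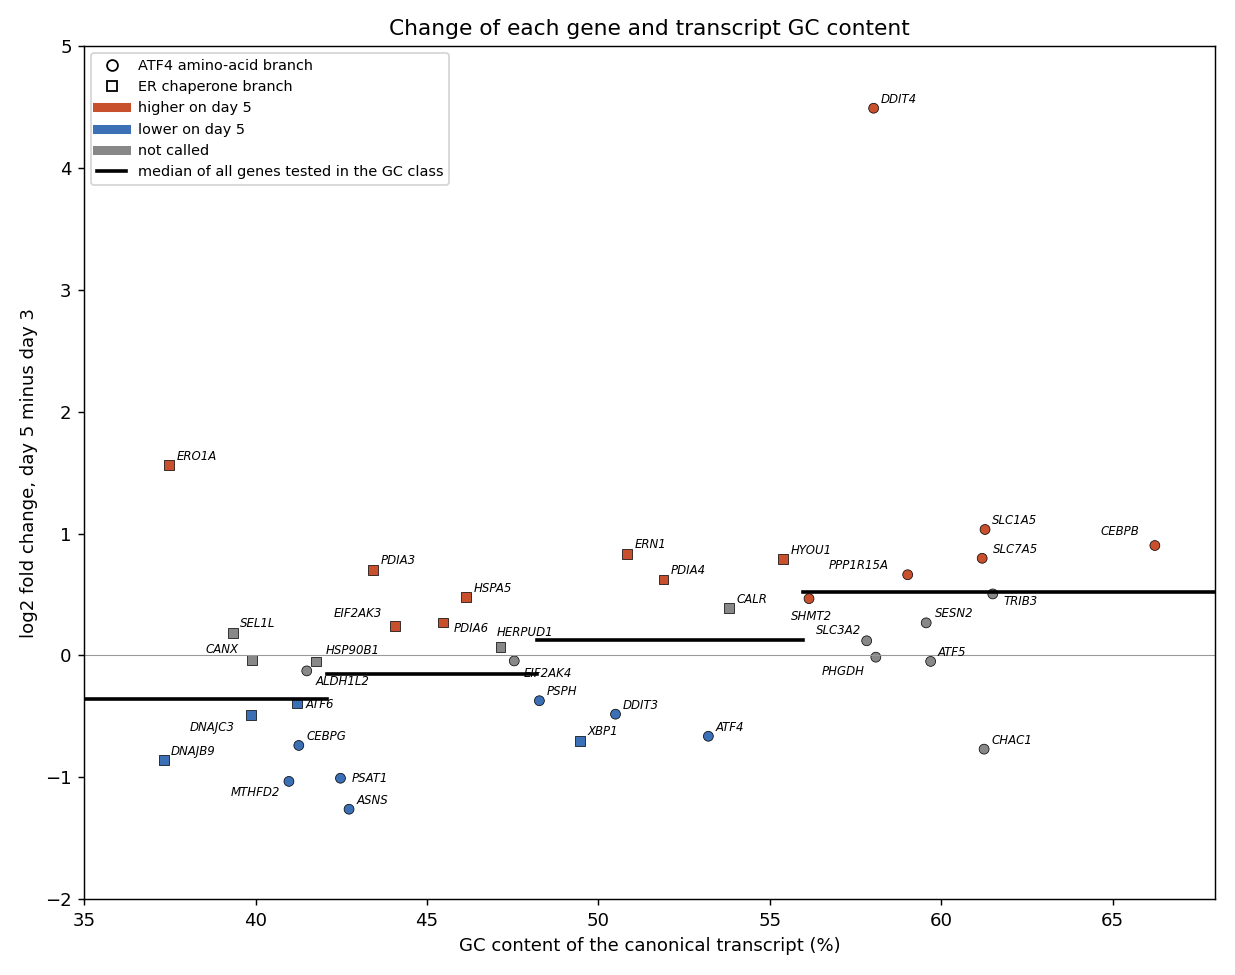
Log2 fold change, day 5 minus day 3, against GC content of the canonical transcript (percent), for the 38 genes by branch (shape) and call (colour), with bars at the median of all genes tested in each of 4 GC classes of 4822 genes (the outer classes run past the axis). SLC1A5, SLC7A5, CEBPB and PPP1R15A lay in the highest GC class, whose median was 0.52, whereas ERO1A rose by 1.56 in the lowest, whose median was -0.36.

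Levels can be compared between genes only per length, so reads per kb of the canonical transcript per 1000000 reads were used. On day 3 the highest members were the ER chaperones HSP90B1 at 375, CALR at 254 and CANX at 220, followed by ATF4 at 180. On day 5 HSP90B1 stood at 380, CALR at 346 and CANX at 224, and DDIT4 came next at 190, from 8.1 on day 3. The lowest on both days was ALDH1L2, a mitochondrial folate dehydrogenase. The order of the first chaperones was the same on both days, and ATF4 at 119 on day 5 stood below HSPA5 at 137.

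Among the regulators of the amino-acid branch, ATF4 and its partner CEBPG fell, while CEBPB and PPP1R15A rose. ATF4 (chromosome 22, 39519695 to 39522683, hg38) had values of 8287, 8910 and 10449 on day 3 and 5948, 5651 and 5781 on day 5. The groups did not overlap, and limma gave a log2 fold change of -0.66 ± 0.11 (SE, n = 3 a day, adjusted p = 0.00274). CEBPG, which pairs with ATF4 on the C/EBP-ATF element and carries 1 in its own window, went from 1984, 2121 and 2139 to 1311, 1252 and 1180. Every day 5 library lay below every day 3 library, with a log2 fold change of -0.74 ± 0.08 (adjusted p = 0.000688 in limma). Both falls were also called after GC correction, at -0.67 and -0.48.

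DDIT3, which encodes the pro-apoptotic factor CHOP, had values of 342, 323 and 393 on day 3 and 229, 294 and 236 on day 5 and fell by 0.48 on the log2 scale (limma, adjusted p = 0.0226). This call was among the least firm. It was lost without day 3 replicate 1 or 3, without day 5 replicate 1 or 3, and after GC correction (-0.25, adjusted p = 0.142). CEBPB, a C/EBP factor raised in stress and inflammation, had 435, 508 and 685 on day 3 against 993, 980 and 1017 on day 5. It was higher on day 5 in 3 of 3 libraries, by a log2 fold change of 0.90 ± 0.17 (adjusted p = 0.00536 in limma), but at a GC content of 66.2% its corrected change was 0.26 (adjusted p = 0.178). PPP1R15A, the GADD34 subunit that brings a phosphatase to eIF2, rose from 736, 973 and 1175 to 1430, 1589 and 1467, by 0.66 ± 0.18 on the log2 scale (limma, adjusted p = 0.0205). The GC correction brought it to 0.17 (adjusted p = 0.41), and the uncorrected call was lost without day 3 replicate 2 or without day 5 replicate 2 or 3.

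The other regulators did not pass the test. EIF2AK4 had a log2 fold change of -0.05, with a 95% interval of -0.31 to 0.22, and ATF5, a factor translated like ATF4, had -0.05, from -0.34 to 0.25. TRIB3, a pseudokinase that binds ATF4, had 392, 444 and 602 on day 3 and 727, 708 and 582 on day 5. Its groups overlapped at the third library of each day, with a log2 fold change of 0.50 ± 0.18 (adjusted p = 0.058 in limma), and edgeR on recovered reads gave an adjusted p of 0.00205. After GC correction EIF2AK4 and ATF5 were called lower, at -0.33 and -0.50, and TRIB3 stood at -0.09.

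**Figure D3:**
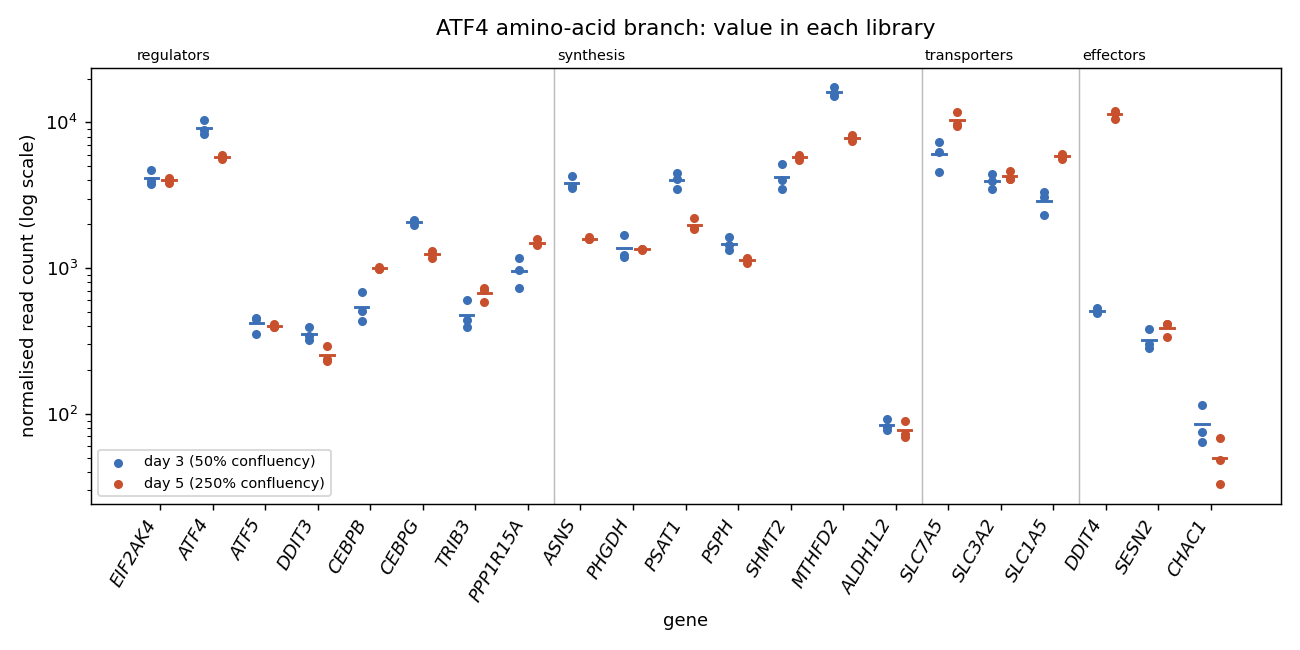
Normalised read counts (log axis) of the 21 genes of the ATF4 amino-acid branch in each of the 3 day 3 and 3 day 5 libraries, 1 point a library with a bar at the mean of the day, ordered by role. DDIT4 went from 493 to 529 on day 3 to 10577 to 11961 on day 5, and the ASNS, PSAT1 and MTHFD2 points of day 5 lie below all those of day 3.

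Of the amino acid and one-carbon enzymes 4 of 7 were lower on day 5 and 1 was higher, against 27.6% and 29.3% of all genes tested, and after GC correction 3 were lower and 0 higher. Their summed level was 0.635 times that of day 3, and MTHFD2, with a day 3 mean of 16135, made up the largest share of the day 3 sum of 31146. ASNS (chromosome 7, 97851677 to 97872542), which makes asparagine from aspartate and holds a C/EBP-ATF element, had values of 3531, 3677 and 4319 on day 3 and 1630, 1574 and 1584 on day 5. The day 5 libraries lay close together and far below day 3, and the log2 fold change was -1.26 ± 0.10 (adjusted p = 0.000287 in limma). MTHFD2, the mitochondrial folate enzyme, went from 15089, 15928 and 17387 to 7890, 7510 and 8224, a log2 fold change of -1.03 ± 0.09 (adjusted p = 0.000341 in limma). PSAT1, the serine-pathway aminotransferase, went from 3505, 4069 and 4467 to 2218, 1891 and 1869, a log2 fold change of -1.01 ± 0.12 (adjusted p = 0.00105 in limma). The day 5 means were 0.415, 0.488 and 0.496 times those of day 3 for ASNS, MTHFD2 and PSAT1. GC correction left all 3 called, at -0.93, -0.81 and -0.65.

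The other serine pathway enzymes are given beside PSAT1, without a test of the difference between them. PHGDH, the first enzyme, had 1200, 1233 and 1684 on day 3 and 1323, 1359 and 1346 on day 5. Those groups overlapped, and the log2 fold change was -0.01, with a 95% interval of -0.37 to 0.34, and -0.36 after GC correction (limma, adjusted p = 0.0536). PSPH, the last enzyme, had 1329, 1431 and 1647 on day 3 and 1148, 1168 and 1078 on day 5 and fell by 0.37 ± 0.10 on the log2 scale (limma, adjusted p = 0.0238). That call was lost without day 3 replicate 2, without each day 5 library in turn, and after GC correction (-0.26, adjusted p = 0.0621), and the pseudogene PSPHP1, with a highest value of 179, reached 16.6% of the lowest PSPH value. SHMT2, which moves a carbon from serine to folate in mitochondria, rose from 3497, 4032 and 5159 to 5799, 5502 and 6010, by 0.47 ± 0.15 on the log2 scale (limma, adjusted p = 0.041). It lost the call without day 3 replicate 1 or 2, without each day 5 library in turn, and after GC correction, at 0.14. ALDH1L2 was low, between 69.7 and 92.2 in the 6 libraries, with a log2 fold change of -0.13, or -0.14 after GC correction, neither called.

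Of the 3 amino acid transporters 2 rose, against 29.3% of all genes, and their summed level was 1.59 times that of day 3. SLC1A5, a glutamine carrier with a C/EBP-ATF element in a window at a start inside the gene, had 2316, 3067 and 3306 on day 3 and 6117, 5585 and 5898 on day 5. The groups stood far apart, with a log2 fold change of 1.03 ± 0.15 (adjusted p = 0.00174 in limma). SLC7A5, the LAT1 carrier of large neutral amino acids, went from 4591, 6232 and 7289 to 11873, 9413 and 9789, by 0.80 ± 0.19 on the log2 scale (limma, adjusted p = 0.014). SLC3A2, the heavy chain that LAT1 needs at the membrane, had 3487, 3974 and 4396 on day 3 and 4674, 4104 and 4078 on day 5, overlapping groups with a log2 fold change of 0.12 (adjusted p = 0.41 in limma). The chains of this one carrier thus had different values, but their difference was not tested. The transcripts of SLC1A5 and SLC7A5 have 61.3% and 61.2% GC, and after GC correction SLC1A5 stood at 0.36 (limma, adjusted p = 0.0588), SLC7A5 at -0.06 and SLC3A2 at -0.22, none of them called.

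Of the effectors, DDIT4 changed most among all 38 genes. DDIT4 (chromosome 10, 72273919 to 72276036), or REDD1, restrains mTORC1 and is known to be raised by hypoxia, glucocorticoids and p53 as well as by ATF4. Its values were 496, 493 and 529 on day 3 and 10577, 11647 and 11961 on day 5. The day 5 mean was 22.5 times that of day 3, a log2 fold change of 4.49 ± 0.08 (adjusted p = 5.60e-05 in limma), and 4.18 after GC correction. All 12 genes of a hypoxia list rose in the same libraries, against 29.3% of all genes tested. The list was chosen with earlier results of these data known. Its genes had a median log2 fold change of 2.56 and a summed level of 48738 to 55605 on day 3 against 167262 to 194754 on day 5. Among them, CA9 had a log2 fold change of 6.31 and NDRG1 of 4.68. The part of hypoxia in the DDIT4 change was not tested.

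SESN2, a leucine-binding inhibitor of mTORC1, and CHAC1, which degrades glutathione, gave no call. SESN2 had 284, 304 and 383 on day 3 and 415, 412 and 337 on day 5, overlapping values with a log2 fold change of 0.27 (adjusted p = 0.175 in limma). CHAC1, which carries a C/EBP-ATF element, had 64.1, 75.4 and 115 on day 3 and 68.3, 48.2 and 33.1 on day 5. Its values overlapped and were the most scattered of the branch, with a log2 fold change of -0.77 ± 0.32 (adjusted p = 0.0867 in limma). It rested on as few as 32 reads in a library, edgeR on recovered reads gave an adjusted p of 0.0212, and limma called it without day 5 replicate 1. After GC correction both were called lower, SESN2 at -0.41 and CHAC1 at -1.14. Of the holders of a C/EBP-ATF element, ASNS and CEBPG thus fell in the uncorrected fit, SLC1A5 rose, and CHAC1, SLC3A2 and HERPUD1 were not called. After GC correction ASNS, CEBPG and CHAC1 were called lower, and SLC1A5, SLC3A2 and HERPUD1 were not called.

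The 4 sensors and factors at the head of the ER branch all passed the test, 2 in each direction, against 56.9% of all genes tested. ERN1, the IRE1 kinase and endonuclease, had 658, 676 and 629 on day 3 and 1172, 1133 and 1195 on day 5. Its log2 fold change was 0.83 ± 0.07 (adjusted p = 0.00037 in limma), and 0.23 after GC correction, still called (adjusted p = 0.0422). EIF2AK3 rose from 727, 760 and 774 to 898, 905 and 866, by 0.24 ± 0.07 on the log2 scale (limma, adjusted p = 0.0312), and by 0.26 after GC correction (adjusted p = 0.0249). The call was lost without day 3 replicate 1 or 2 and without each day 5 library in turn, although the groups did not overlap.

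The transcription factors of the branch were lower on day 5. XBP1 (chromosome 22, 28794555 to 28800597), whose mRNA is the substrate of IRE1 and whose window holds an ER stress element, had 1932, 2136 and 2570 on day 3 and 1404, 1332 and 1318 on day 5. It fell by 0.70 ± 0.12 on the log2 scale (limma, adjusted p = 0.00371), and by 0.62 after GC correction. ATF6 had 2917, 3001 and 3543 on day 3 and 2337, 2395 and 2473 on day 5, a log2 fold change of -0.39 ± 0.10 (adjusted p = 0.0176 in limma), and again -0.39 after GC correction. The uncorrected fall lost its call without day 5 replicate 1 or 2. For both genes each day 5 value lay under every day 3 value. Gene-level values do not separate spliced from unspliced XBP1 mRNA, which was not analysed here.

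Of the 7 chaperones 2 were higher, 2 lower and 3 not called, near the shares of all genes tested (29.3% higher and 27.6% lower). HSPA5 (chromosome 9, 125234853 to 125241382), the BiP chaperone that holds the ER sensors inactive, had 11241, 13956 and 14800 on day 3 and 18405, 18320 and 18589 on day 5. The day 5 libraries were almost equal and all higher, by a log2 fold change of 0.48 ± 0.12 (adjusted p = 0.0157 in limma), or 0.43 after GC correction. HYOU1, a large relative of HSP70 that exchanges nucleotide on BiP, rose from 3124, 3896 and 4390 to 7013, 6166 and 6393, by 0.79 ± 0.14 on the log2 scale (limma, adjusted p = 0.00441). Its transcript has 55.4% GC and 4598 bases, and its value corrected for both was 0.17 (limma, adjusted p = 0.288).

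The J-domain partners of BiP fell. DNAJB9 (ERdj4) had 618, 657 and 622 on day 3 and 301, 369 and 381 on day 5, and DNAJC3 (p58IPK), which also inhibits eIF2 kinases, had 3770, 3969 and 3836 against 2762, 2698 and 2801. The log2 fold changes were -0.86 ± 0.11 for DNAJB9 (limma, adjusted p = 0.00123) and -0.49 ± 0.07 for DNAJC3 (limma, adjusted p = 0.00183). In both the days were well apart, and both were also called lower after GC correction, at -0.32 and -0.29.

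The most abundant chaperones gave no call. HSP90B1 (GRP94) had 35326, 37728 and 39542 on day 3 and 34661, 36842 and 37208 on day 5, with a 95% interval of -0.25 to 0.15 for the log2 fold change. CANX, the membrane lectin chaperone calnexin, had 35780, 41881 and 38673 against 37566, 37906 and 37697, with an interval of -0.25 to 0.17. In both the groups overlapped. CALR, the soluble lectin chaperone calreticulin, had 14347, 17421 and 20592 on day 3 and 23197, 21961 and 22554 on day 5, groups that did not overlap, with a log2 fold change of 0.39 ± 0.14 (adjusted p = 0.0583 in limma) and an adjusted p of 0.00251 from edgeR. After GC correction HSP90B1 was called higher, at 0.28 (adjusted p = 0.0348), and CANX at 0.21 and CALR at 0.23 were not.

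**Figure D4:**
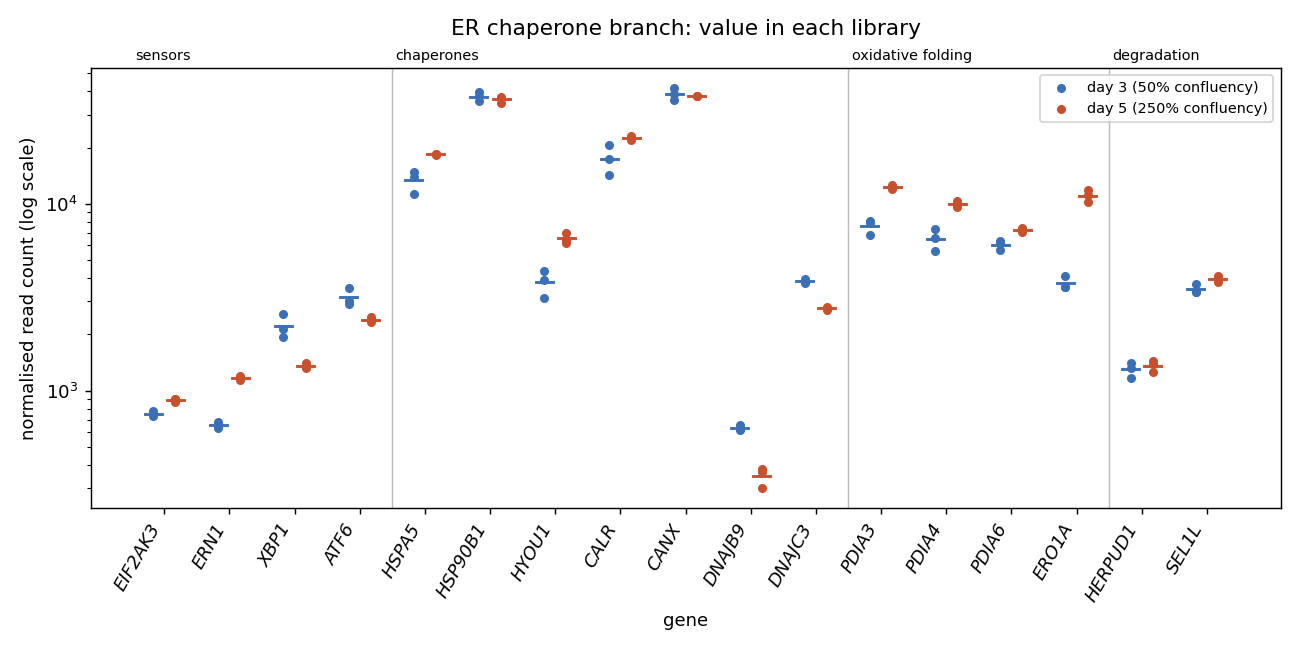
Normalised read counts (log axis) of the 17 genes of the ER branch in each of the 3 day 3 and 3 day 5 libraries, 1 point a library with a bar at the mean of the day, ordered by role. ERO1A went from 3576 to 4112 on day 3 to 10206 to 11876 on day 5, and each of the 4 oxidative folding genes has all its day 5 points above its day 3 points.

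All 4 oxidative folding genes rose, against 29.3% of all genes, though PDIA6 lost its call in several settings. The summed level of the 4 reached 1.70 times that of day 3. ERO1A (chromosome 14, 52639915 to 52695900), the oxidase that hands disulfide bonds to protein disulfide isomerases, had 3576, 4112 and 3581 on day 3 and 10206, 11145 and 11876 on day 5. That is 2.95 times the day 3 mean, a log2 fold change of 1.56 ± 0.10 (adjusted p = 0.000207 in limma), and 1.92 after GC correction. ERO1A is also known as a hypoxia-raised gene, and the hypoxia list above rose in these libraries. The part of hypoxia was not tested.

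The disulfide isomerases rose less. PDIA3 (ERp57), which works with calnexin and calreticulin on glycoproteins, went from 6800, 7895 and 8051 to 12053, 12355 and 12547, by 0.70 ± 0.09 on the log2 scale (limma, adjusted p = 0.00129). PDIA4 (ERp72) went from 5591, 6547 and 7319 to 9799, 9652 and 10343, by 0.62 ± 0.12 on the log2 scale (limma, adjusted p = 0.00512). PDIA6, with an ER stress element in its window, went from 5649, 6139 and 6355 to 7082, 7371 and 7402, by 0.27 ± 0.08 on the log2 scale (limma, adjusted p = 0.0294), a call lost without day 3 replicate 1 or 2 and without each day 5 library in turn. In all 3 the day 5 libraries lay above those of day 3, and GC correction gave 0.85, 0.39 and 0.48, each called.

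The degradation genes gave no call in the uncorrected limma fit. HERPUD1, an ER membrane protein that organises the degradation ubiquitin ligase, had 1171, 1320 and 1409 on day 3 and 1262, 1392 and 1432 on day 5, with a log2 fold change of 0.07 and a 95% interval of -0.18 to 0.32. SEL1L, the adaptor of that ligase, had 3390, 3723 and 3375 on day 3 and 3832, 4105 and 3986 on day 5. Its groups did not overlap, but the log2 fold change of 0.19 missed the threshold (limma, adjusted p = 0.094). It was called higher after GC correction, at 0.28 (adjusted p = 0.0236), and by edgeR on recovered reads (adjusted p = 0.0432). HERPUD1 stood at 0.10 after GC correction. Of the 8 genes with an ER stress element of either form, HSPA5, PDIA6 and HYOU1 rose and XBP1 fell in the uncorrected fit. CALR, CANX, HSP90B1 and HERPUD1 were not called there. After GC correction HSPA5, PDIA6 and HSP90B1 were called higher and XBP1 lower, and HYOU1, CALR, CANX and HERPUD1 were not called.

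The day 3 libraries were more spread in these genes than those of day 5. Day 3 replicate 3, the shallowest library, had the highest value of its day in 30 of the 38 genes (78.9%), against 49.7% of all genes tested, and in 19 of the 21 of the amino-acid branch. Its normalised total was also the largest of its day, at 3.89e+07 against 3.40e+07 and 3.50e+07. Its median log2 difference from the mean of the other day 3 libraries was 0.24 over the members and 0.08 over all genes. Day 3 replicate 1 stood at -0.22 and -0.06. Leaving out day 3 replicate 3 added calls for TRIB3, SESN2 and CALR and took away that of DDIT3. With library totals as the scale, TRIB3 and CALR were called as well.

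Log2 fold changes are also given for other genes. Those of the same pathways, in 7 lists that leave out the 38, came to 117 tested, of which 32 rose and 39 fell, with a median log2 fold change of -0.10. Counts here and for each list below stand against 29.3% of all genes tested that rose and 27.6% that fell. Among other targets of ATF4, 6 of 17 rose and 3 fell. The secreted factors GDF15 and STC2 had log2 fold changes of 2.18 and 2.12, and the cystine carrier SLC7A11 and the repressor JDP2 had -1.26 and -0.76. Cytosolic tRNA synthetases gave 4 higher and 8 lower of 20, with VARS1 at 1.24 and QARS1 at 0.64 against TARS1 at -1.12 and RARS1 at -1.04. In folate metabolism 3 of 12 rose and 4 fell, with AMT at 1.13 and GCSH at -1.18, both of the glycine cleavage system. Of 15 subunits and controllers of eIF2 and eIF2B, 7 fell, EIF2B3 (-1.15) and EIF2S2 (-1.13) most, and GCN1, which activates GCN2, was the 1 that rose, at 1.13.

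Values of the wider ER lists are again log2 fold changes, and their counts stand against the same 29.3% and 27.6% of all genes. Of 19 other folding genes 6 rose and 7 fell. GANAB, a glucosidase subunit of glycoprotein trimming, had 1.78 and P4HB, the founding disulfide isomerase, 1.24, while the J-domain proteins DNAJC10 and DNAJB11 both had -0.84. In ER-associated degradation and translocation 5 of 19 rose and 8 fell, with the ubiquitin ligase SYVN1 at 1.47 and the lectin OS9 at 1.15, and the translocon subunits SEC61B at -1.33 and SSR3 at -1.06. Other ER stress signalling genes gave 7 higher and 2 lower of 15, with CREB3L2 at 1.22 and BBC3 at 1.16 against NFYB at -0.94 and MBTPS2 at -0.26. After GC correction 23 of the 117 genes of these 7 lists rose and 38 fell, against 22.1% and 24.5% of all genes. Of those named, VARS1 (0.40), QARS1 (0.32), GCN1 (0.24) and MBTPS2 (0.02) were no longer called. Proliferation genes, as context, gave 3 higher and 8 lower of 12, with PCNA at -1.37 and CCNB1 at -1.15 against PLK1 at 0.63 and MCM2 at 0.61, which were not called after GC correction (0.26 and 0.02). Targets of p53, of which DDIT4 is also one, gave 4 higher and 4 lower of 12, with CDKN1A at 0.93, TP53INP1 at 0.78, TIGAR at -1.59 and FAS at -0.85.

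**Figure D5:**
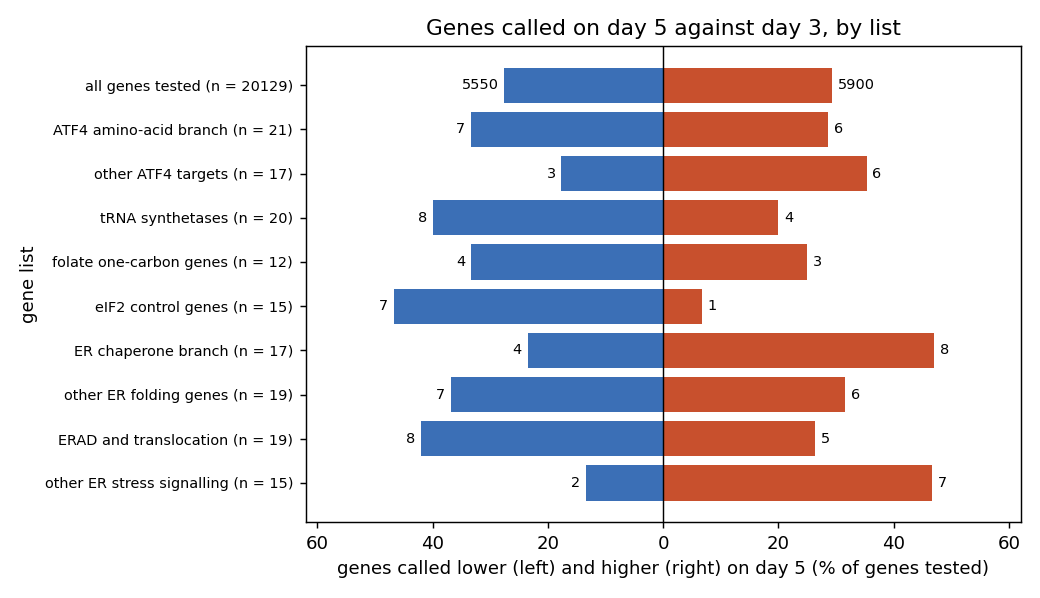
Share of genes called lower (blue, left) and higher (red, right) on day 5, in percent of the genes tested in each list, with the number of genes called beside each bar and the number tested in the label. The ER chaperone branch had 4 of 17 genes lower and 8 higher and the ATF4 amino-acid branch 7 of 21 lower and 6 higher, against 5550 lower and 5900 higher of all 20129 genes.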

How the data were processed

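Whole cell RNA was ribosome-depleted and made into stranded libraries with UMI adapters (Kapa RiboErase), and paired reads were mapped by the authors to ENSEMBL genes on hg38 with CLC Genomics Workbench, counting the sense strand. Whether UMIs were used in counting is not given in the sources used here. FastQC 0.11.8 and MultiQC 1.7 stand in the submitters' notes. The deposited values are a signal, gene counts divided by 1 factor for each library, and 100% of values gave whole reads within 0.02 once that factor was found. Small RNA tables were not used, and columns of the authors' own comparison (fold changes and p-values) were not read.

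Groups came from the sample titles. limma 3.58.1 in R 4.3.3 was fitted, two-sided, to log2(value + 1). The filter kept 20129 genes that reached 10 in 3 or more of the 6 libraries. P-values had Benjamini-Hochberg adjustment and a threshold of 0.05, and fold changes are on the log2(value + 1) scale. Counts were not assumed for this test because the values are scaled, and edgeR 4.0.16 and DESeq2 1.42.0 on recovered reads were alternatives. The fit was tested on simulated data. GC content and length came from GENCODE 44 canonical transcripts, for 95.8% of genes. For the correction, a loess with a span of 0.5 was fitted in each library to the deviation of log2 values from the gene mean. The fitted part was subtracted before limma was run again.

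Members and lists were chosen with earlier results of these data known. All 38 are named, and from each further list the called genes with the 2 highest and 2 lowest fold changes, of which some in folate metabolism are not reported here. Genes are reported by the symbols in the table. P-values measure the spread between libraries that the labels call biological replicates of 1 line. Copies of members were sought by name only, as the symbol followed by P with or without a number. Those found other than PSPHP1 reached at most 4.72% of the lowest value of their member. Copies with other names were not looked for.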

Additional observations from a re-analysis of the deposited data

How the results depend on the processing

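Of the 25 members called, 17 had the same call in all 14 planned fits and 13 also after GC and length correction, which was chosen after seeing the data. Over all genes limma called 11450 (5900 higher, 5550 lower), edgeR 6245 higher and 6035 lower, DESeq2 5922 and 5608, and library totals as the scale 6395 and 4982. At a change of at least 2-fold 3589 genes were left (2059 higher, 1530 lower), with 2 higher and 3 lower in the amino-acid branch, 1 and 0 in the ER branch, and 13 and 8 in the other pathway lists. Without the filter on low values, 9235 genes were called, and 5 genes of the ER branch rose in place of 8. HSPA5, PDIA6, EIF2AK3, ATF6, DDIT3, PPP1R15A, PSPH and SHMT2 were no longer called, with adjusted p from 0.0671 to 0.171. After GC correction 1 gene of the amino-acid branch rose in place of 6, its median moved to -0.26, and the sign turned for TRIB3 (-0.090), SLC7A5 (-0.063), SLC3A2 (-0.22), SESN2 (-0.41), HSP90B1 (0.28) and CANX (0.21). On library totals the sign turned for EIF2AK4 (0.022), ATF5 (0.018), PHGDH (0.052), HSP90B1 (0.017) and CANX (0.030), none called. Leaving out 1 library at a time, uncalled genes again crossed 0, with ranges of -0.12 to 0.053 for EIF2AK4, -0.17 to 0.018 for ATF5, -0.10 to 0.14 for PHGDH, -0.093 to 0.020 for CANX and -0.0040 to 0.13 for HERPUD1. The cause was not tested.

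Deviations of same-numbered libraries from the mean of their day correlated at -0.011, 0.034 and 0.023. With 3 libraries a day, these values cannot settle whether replicate numbers pair the libraries. With the replicate block 10533 genes were called (5482 higher, 5051 lower), and DDIT3, PSPH, EIF2AK3 and PDIA6 were not called (adjusted p = 0.0594, 0.0649, 0.0905 and 0.0642). Whether those numbers mark a shared batch is not given in the sources used here. Depth limits CHAC1 and ALDH1L2, the members with the fewest reads.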
